A study of Mus musculus with 15 samples.

Results

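Oligodendrocyte progenitor markers are represented here by 6 genes, Cspg4, Lhfpl3, Gpr17, Olig1, Olig2 and Nkx2-2. The members were all probe sets of the array whose platform gene symbol is one of these names, which gave 8 probe sets of 45037 that are not controls, or 6 genes of 18193 with a symbol of their own. Cspg4 and Lhfpl3 have 2 probe sets each, and the brighter one is described first. In side population (SP) cells of both tumour lines, Cspg4, Lhfpl3 and Gpr17 were between 4.79 and 18.5 times higher than in SP cells of untransformed neurospheres, whereas Olig2 was about 2.1 to 2.4 times lower (on the scale of signal + 16). Across 28 alternative fits, the Olig2 difference kept an adjusted p under 0.05 (limma) in 24 for 3447 SP and 19 for 4346 SP. The differences of Cspg4, Lhfpl3 and Gpr17 kept it in all.

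The study compared sorted cells of a mouse glioma model on 15 Affymetrix expression arrays, in 5 groups of 3. SP cells keep little of a DNA-binding dye because efflux pumps remove it, and the remaining cells are called non-SP. All groups descend from mice that carry the S100beta-verbB transgene, in which the S100beta promoter drives v-erbB, a transforming form of the EGF receptor, in a background of p53-/- or p53+/-; the labels do not say which p53 genotype belongs to which line, and give no age. The groups 3447 SP, 3447 non-SP and 4346 SP are tumorsphere cultures of the lines 3447 and 4346, each grown again from the brains of 3 immunodeficient NOD.Cg-Prkdc<scid>Il2rg<tm1Wjl>/SzJ hosts. The 3 arrays of a line therefore share a starting tumour culture. The groups neurosphere SP and neurosphere non-SP are cultures of neural stem and progenitor cells that were not transformed, from 3 independent transgenic mice; another passage of the study's description speaks of mice injected with neurospheres, so their route is not certain. All cells were cultured before sorting.

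Oligodendrocyte progenitors arise from neural stem cells, divide throughout life and give rise to the myelinating cells of the brain. The factors Olig2 and Olig1 set up the lineage, Nkx2-2 acts in progenitors on the way to differentiation, and Cspg4 (the proteoglycan NG2) is the classical surface marker of the dividing stage. Gpr17 marks a transient stage between progenitor and myelinating cell. Olig2 is not restricted to this lineage: cultured neural progenitors and many gliomas also express it.

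Values are deposited signals, linear intensities scaled by the authors to a common mean on every array, and are given as mean ± SD of 3 arrays. Differences are of log2(signal + 16) after quantile normalization, with a standard error, from limma with Benjamini-Hochberg adjustment over 26256 probe sets; a gene is called below when its adjusted p is under 0.05. All 8 probe sets passed the filter on low signals. Array medians ran from 40.0 to 89.3. A pair of arrays stood apart: 3447 SP array 3 had the highest median, 89.3, and resembled its replicates least (mean rank correlation 0.855), and 4346 SP array 3 had an actin 3' to 5' ratio of 5.30, against 2.49 to 3.29 on the others. The 3447 SP array 3 held the highest signal of its group for Cspg4, Lhfpl3, Gpr17, Olig1 and Olig2. In its own group, 4346 SP array 3 held the highest Gpr17, the highest Cspg4 (brighter probe set only) and the lowest Lhfpl3, Olig1 and Olig2. Arrays measure pooled RNA, so fewer cells of a type and less RNA per cell cannot be told apart.

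Before the values, the promoters are shown for members with an entry in the RefSeq promoter table (GRCm38.p6). Olig factors bind E boxes, but a link between motifs and the direction of a member was not tested. The entries matched 4 of the 6 members and not Olig1 or Gpr17. Each run is the 250 bases upstream of the start of the gene, 5′ to 3′ on the gene's strand. Capitals mark CANNTG (the E box), ACAAAG (a core bound by Sox factors) and CACTTNA (a core bound by Nkx2-2), each searched on both strands.

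The promoters of Cspg4 and Lhfpl3, which were higher in both tumour SP groups, lie at chr9:56864854-56865103 and chr5:22745804-22746053 (both plus strand). That of Nkx2-2, called higher in 4346 SP alone, lies at chr2:147186403-147186652 (minus strand), and that of Olig2, which was lower in both tumour SP groups, at chr16:91225300-91225549 (plus strand).
Cspg4: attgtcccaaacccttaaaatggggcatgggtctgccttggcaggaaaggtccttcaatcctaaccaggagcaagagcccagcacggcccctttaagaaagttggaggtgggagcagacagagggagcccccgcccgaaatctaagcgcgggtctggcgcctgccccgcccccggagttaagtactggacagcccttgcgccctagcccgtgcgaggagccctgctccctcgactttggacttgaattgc
Lhfpl3: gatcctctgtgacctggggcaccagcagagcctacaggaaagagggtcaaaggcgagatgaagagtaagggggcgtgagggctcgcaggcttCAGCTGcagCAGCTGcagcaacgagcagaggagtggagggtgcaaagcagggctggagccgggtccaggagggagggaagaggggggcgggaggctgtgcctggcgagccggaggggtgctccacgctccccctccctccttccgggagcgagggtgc
Nkx2-2: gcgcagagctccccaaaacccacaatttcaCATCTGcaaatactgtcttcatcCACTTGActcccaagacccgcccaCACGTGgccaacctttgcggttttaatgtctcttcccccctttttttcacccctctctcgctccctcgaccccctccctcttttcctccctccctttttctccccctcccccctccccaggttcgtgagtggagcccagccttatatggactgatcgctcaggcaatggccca
Olig2: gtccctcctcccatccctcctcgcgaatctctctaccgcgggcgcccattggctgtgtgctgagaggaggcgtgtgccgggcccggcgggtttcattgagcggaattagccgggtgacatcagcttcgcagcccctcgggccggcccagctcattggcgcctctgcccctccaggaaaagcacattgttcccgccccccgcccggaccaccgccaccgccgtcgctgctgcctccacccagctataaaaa

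E boxes were found in 2 of these 4 windows. Lhfpl3 holds 2, both of the form CAGCTG. Nkx2-2 holds 3, of which 1 overlaps its CACTTNA match, while Cspg4 and Olig2 hold none. Over all 32851 promoters of this length, 66.2% hold CANNTG, 13.0% hold CAGCTG, 16.5% hold ACAAAG and 10.1% hold CACTTNA. The Olig-type E box CATATG, present in 3.5% of promoters, and ACAAAG were in none of the 4. The GC-rich hexamer CCCGCC, present in 32.5% of all promoters, was in all 4 windows, with 3 matches in Olig2, 2 in Cspg4 and 1 each in Lhfpl3 and Nkx2-2. TATAAA, present in 12.4%, was found in Olig2 alone among them. The windows had a GC content of 56.4% (Nkx2-2) to 67.2% (Lhfpl3), against a median of 52.4% over all promoters. These matches describe letters and not binding sites.

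**Figure D1:**
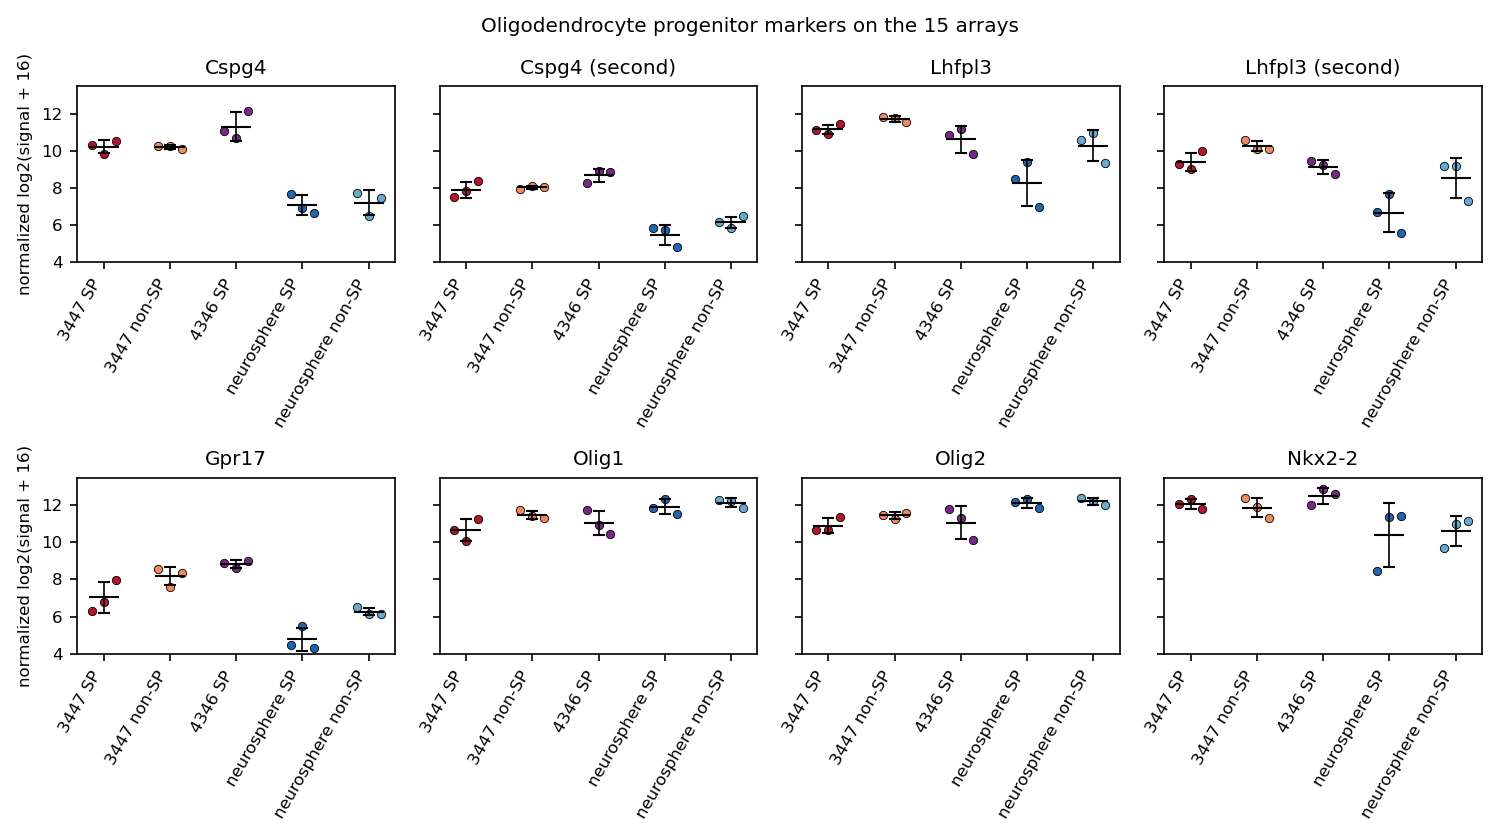
Normalized log2(signal + 16) of each member probe set (panels; second marks the dimmer probe set of a gene) on every array, by group; points are arrays in the order of their number, and the horizontal bar and whiskers are the mean and SD of 3 arrays. For Cspg4 the 9 tumour arrays lie above the 6 neurosphere arrays without overlap, and for Olig2 they lie below.

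The comparison of tumour with neurosphere cells shows how the markers differ between transformed cultures and their untransformed counterparts. Of the 6 genes, 5 were called in 3447 SP against neurosphere SP (3 higher, 2 lower), where 15.2% of all tested probe sets were called, 8.01% higher and 7.17% lower. In 4346 SP against neurosphere SP 5 were called as well (4 higher, 1 lower), against 19.8% of all probe sets, 10.2% higher and 9.64% lower. In 3447 non-SP against neurosphere non-SP 2 were called, both higher, against 15.2% of all probe sets, 8.16% higher and 7.00% lower. At an unadjusted p under 0.05, 6, 6 and 5 of the 6 genes passed in these comparisons, against 28.6%, 33.1% and 27.7% of all probe sets. The arrays of both groups did not overlap for 6, 5 and 6 of the 6 genes, against 32.3%, 34.9% and 35.0% of all probe sets. The median difference of the 6 genes was 1.95, 2.22 and 1.35 log2 in these comparisons, and that of all tested probe sets was −0.04, −0.07 and −0.02. The comparisons of both tumour SP groups share their neurosphere arrays. Of the calls over all probe sets, 51.4% were higher in 4346 SP and 53.8% in 3447 non-SP; with arrays centred on their medians these shares were 69.7% and 64.6%, and the direction of no member turned.

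Cspg4 encodes NG2, a membrane proteoglycan that binds growth factors and collagen. Its signals were 1281, 924 and 1413 in 3447 SP and 1230, 1211 and 1105 in 3447 non-SP. In 4346 SP they were 2155, 1623 and 4652. The neurosphere SP arrays gave 178, 105 and 86.6, and the non-SP arrays 191, 90.5 and 148. The lowest tumour array thus stood well above the highest neurosphere array; 5.95% of all probe sets showed such a separation upward. Cspg4 was higher in 3447 SP than in neurosphere SP by 3.13 ± 0.39 log2 (8.78-fold, adjusted p = 3.33e-05, limma). In 4346 SP the difference was 4.21 ± 0.39 (18.5-fold, adjusted p = 1.45e-06, limma), and without its array 3 it was 3.77 (adjusted p = 6.74e-06, limma). The non-SP comparison gave 3.00 ± 0.39 (8.02-fold, adjusted p = 4.67e-05, limma). The second probe set of Cspg4 was dimmer, 182 to 460 on tumour and 14.9 to 63.7 on neurosphere arrays, and was called in each of these comparisons, with differences of 2.44, 3.22 and 1.89. In the order of group means of the brighter probe set, 4346 SP came first and did not overlap with 3447 SP. Both 3447 groups overlapped with each other there, and so did both neurosphere groups. On the second probe set 4346 SP and 3447 SP overlapped, and the neurosphere groups did not.

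Gpr17 encodes a G protein-coupled receptor that holds precursors back from maturing. On the 3447 SP arrays its signals were 76.1, 89.5 and 251, and on the 3447 non-SP arrays 351, 185 and 319. The 4346 SP arrays gave 467, 362 and 496. Neurosphere SP arrays gave 6.37, 28.3 and 4.69, and neurosphere non-SP arrays 72.0, 69.8 and 48.0. The signal lay above the median of its array on 12 of 15 arrays, all but those of neurosphere SP. The difference from neurosphere SP was 2.26 ± 0.41 log2 in 3447 SP (4.79-fold, adjusted p = 0.00106, limma) and 4.07 ± 0.41 in 4346 SP (16.8-fold, adjusted p = 3.28e-06, limma). Without 3447 SP array 3 the former was 1.81 (adjusted p = 0.00637, limma). Since the neurosphere SP signals lie near or below the added 16, these folds understate the ratio of the signals. In non-SP cells the difference was 1.92 ± 0.41 (3.78-fold, adjusted p = 0.00388, limma). By group mean 4346 SP stood highest, without overlap with 3447 non-SP, and neurosphere SP lowest, without overlap with neurosphere non-SP; 3447 non-SP and 3447 SP overlapped, and so did 3447 SP and neurosphere non-SP.

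Lhfpl3 encodes a membrane protein of the lipoma HMGIC fusion partner-like family that is enriched in oligodendrocyte progenitors. The 3447 SP arrays gave signals of 2237, 1969 and 2681, and the 3447 non-SP arrays 3726, 3453 and 2961. In 4346 SP the signals were 1883, 2364 and 876. Neurosphere cells spread widely, with 325, 640 and 108 in SP and 1526, 1940 and 627 in non-SP. The 3 tumour groups exceeded neurosphere SP on every array, and the 4346 SP and neurosphere non-SP groups overlapped. The difference from neurosphere SP was 2.89 ± 0.51 log2 in 3447 SP (7.41-fold, adjusted p = 0.000809, limma) and 2.35 ± 0.51 in 4346 SP (5.10-fold, adjusted p = 0.00359, limma). For non-SP cells the brighter probe set gave 1.44 ± 0.51 (adjusted p = 0.0668, limma) and the dimmer one 1.71 ± 0.51 (adjusted p = 0.0297, limma), so the call differed between the probe sets while the direction did not. By mean normalized log2 the order was 3447 non-SP (11.72), 3447 SP (11.16), 4346 SP (10.63), neurosphere non-SP (10.29) and neurosphere SP (8.28), and of the neighbours in this order only 3447 non-SP and 3447 SP did not overlap. That call of the dimmer probe set was lost without any 1 of the 3447 non-SP arrays and without neurosphere non-SP array 3 (1.09, adjusted p = 0.138, limma), and the brighter one was called in some alternatives, including the fit of the compared groups alone (adjusted p = 0.0225, limma).

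Olig1 and Olig2 are neighbouring genes on chromosome 16 that encode basic helix-loop-helix factors; Olig2 specifies the lineage and Olig1 promotes maturation and myelin repair. Both were well measured in all groups, and no array fell below 1062 for either gene. Olig2 signals were 1616, 1639 and 2601 in 3447 SP and 2881, 2456 and 3057 in 3447 non-SP. The 4346 SP arrays gave 3587, 2564 and 1084. The neurosphere arrays gave 4762, 5384 and 3613 in SP and 5287, 4588 and 4200 in non-SP. Every tumour array lay below every neurosphere array for Olig2, a separation shown by 5.55% of all probe sets. Its margin was narrow, from 3587 on 4346 SP array 1 to 3613 on neurosphere SP array 3. Olig2 was lower in 3447 SP than in neurosphere SP, with a difference of −1.23 ± 0.32 log2 (2.35-fold, adjusted p = 0.0133, limma). In 4346 SP it was −1.07 ± 0.32 (2.10-fold, adjusted p = 0.0250, limma). In non-SP cells it was −0.76 ± 0.32 (adjusted p = 0.124, limma). The order of group means fell from neurosphere non-SP (12.21 log2) and SP (12.14) to 3447 non-SP (11.45), 4346 SP (11.07) and 3447 SP (10.90), with overlap between neighbours on each side of the gap between neurosphere and tumour cells.

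Olig1 signals were 1617, 1062 and 2392 in 3447 SP and 3446, 2704 and 2487 in 3447 non-SP. In 4346 SP they were 3410, 1980 and 1358, in neurosphere SP 3747, 5321 and 2963, and in neurosphere non-SP 4908, 4746 and 3752. The 3447 SP arrays lay below all neurosphere arrays, and 4346 SP overlapped with neurosphere SP. Olig1 was lower in 3447 SP by −1.26 ± 0.32 log2 (2.39-fold, adjusted p = 0.0121, limma). The difference was −0.89 ± 0.32 in 4346 SP (adjusted p = 0.0580, limma) and −0.66 ± 0.32 in non-SP cells (adjusted p = 0.187, limma). The order of group means was that of Olig2, from 12.14 in neurosphere non-SP to 10.66 in 3447 SP, and each group overlapped with the next.

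The calls of this gene pair depended on single arrays and, for Olig2 in 4346 SP, on the processing. That call held in 19 of 28 alternatives; with all arrays kept it was lost with median centring (−0.87, adjusted p = 0.116), no trend (0.0532), array weights (−0.67, 0.0717) and the compared groups alone (0.0909), by limma in each case. In 3447 SP, Olig2 was no longer called without 3447 SP array 1 (adjusted p = 0.0569), 3447 SP array 2 (0.0554) or neurosphere SP array 2 (0.0522), and Olig1 without 3447 SP array 2 (0.0667) or neurosphere SP array 2 (0.0596), by limma in each case. In 4346 SP, leaving out array 3, the one with the high actin ratio, moved Olig2 to −0.59 (adjusted p = 0.107, limma). Without neurosphere SP array 1 or 2 it stood at −1.03 (adjusted p = 0.0688) and −0.95 (0.0879, limma), and Olig1 in 4346 SP was called without 4346 SP array 1 (−1.24, adjusted p = 0.0122, limma).

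The genes around the Olig pair were measured as well, chosen by position alone. In the RefSeq gene order of protein-coding genes no other gene stands between Olig2 and Olig1. The nearest gene on the Olig2 side, 4932438H23Rik, did not pass the filter and was not tested. On the Olig2 side, Paxbp1 had a difference of −0.88 log2 in 3447 SP (adjusted p = 0.0449, limma) and −0.58 in 4346 SP (0.159), and Synj1 of −0.09 and −0.33 (adjusted p = 0.868 and 0.430). On the Olig1 side the interferon and interleukin receptor genes Ifnar2, Il10rb and Ifnar1 were not called in either line, with differences from −0.51 to 0.01 in 3447 SP and from −0.19 to 1.07 in 4346 SP.

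Nkx2-2 encodes a homeodomain factor needed for oligodendrocyte differentiation. Its signals were 4202, 5124 and 3395 in 3447 SP, and 5455, 3856 and 2526 in 3447 non-SP. The 4346 SP arrays gave 4279, 7590 and 6303. Neurosphere SP arrays gave 315, 2655 and 2715, and neurosphere non-SP arrays 813, 1946 and 2323. Neurosphere number 1 was thus low in both sorted fractions, and the other 4 neurosphere arrays lay between 1946 and 2715. The difference from neurosphere SP was 2.09 ± 0.59 log2 in 4346 SP (4.26-fold, adjusted p = 0.0193, limma) and 1.65 ± 0.59 in 3447 SP (adjusted p = 0.0716, limma). Without neurosphere SP array 1 these were 1.10 (adjusted p = 0.0637) and 0.65 (adjusted p = 0.322, limma). In 3447 SP Nkx2-2 was called without neurosphere SP array 2 (2.13, adjusted p = 0.0333) or 3 (2.15, 0.0294) and with array weights (1.88, 0.0447, limma). The call in 4346 SP was also lost without 4346 SP array 2 (adjusted p = 0.0624) or 3 (0.0582, limma). In non-SP cells the difference was 1.27 ± 0.59 (adjusted p = 0.173, limma). Group means ran from 12.51 log2 in 4346 SP through 12.06 in 3447 SP and 11.88 in 3447 non-SP, all overlapping, to 10.61 in neurosphere non-SP, which did not overlap with 3447 non-SP, and 10.42 in neurosphere SP.

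**Figure D2:**
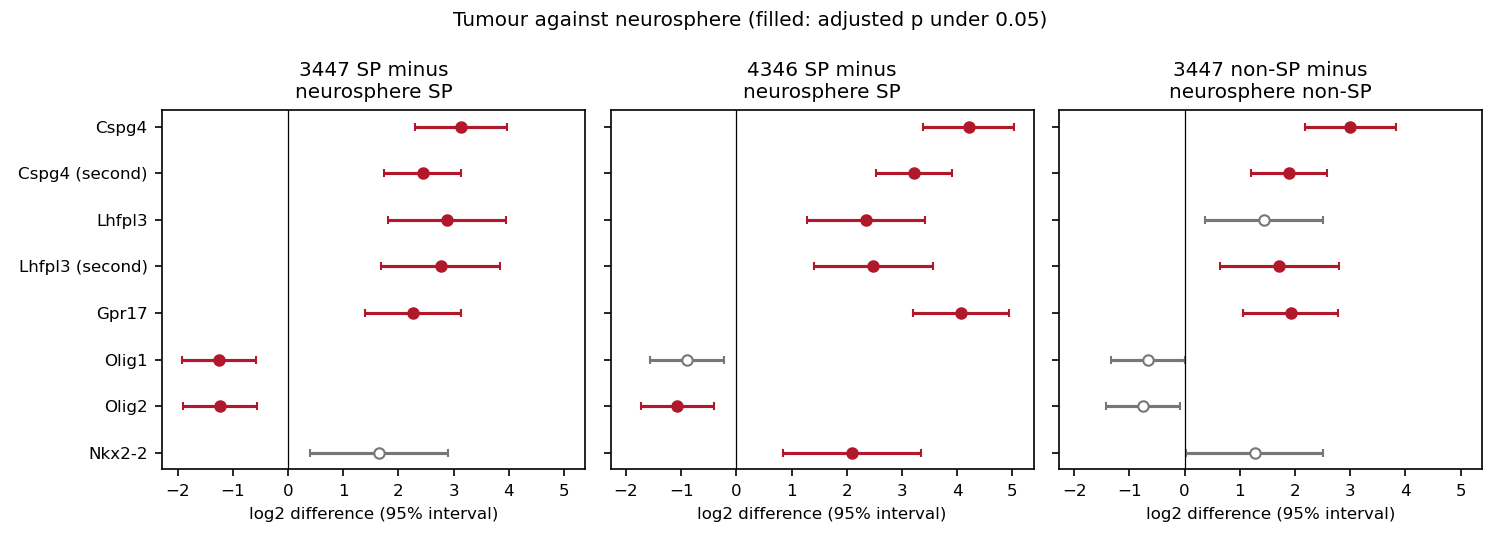
Difference in log2(signal + 16) between tumour and neurosphere cells with its 95% interval, by member probe set, in 3 panels for 3447 SP, 4346 SP and 3447 non-SP; filled points have an adjusted p under 0.05. Cspg4, Lhfpl3, Gpr17 and Nkx2-2 lie right of 0 and Olig1 and Olig2 left of 0 in all panels.

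Between the tumour lines, 3447 SP against 4346 SP, 1 of the 6 genes was called, where 1.20% of all probe sets were, 0.434% higher and 0.769% lower. Of those calls 36.1% were higher in 3447 SP, and 8.12% with arrays centred on their medians, which moved the median of all probe sets from 0.01 to −0.27. At an unadjusted p under 0.05, Cspg4 and Gpr17 passed, against 15.4% of all probe sets. The lines did not overlap for Gpr17 and the brighter Cspg4 probe set, against 18.8% of all probe sets. Gpr17 was lower in 3447 SP, at 139 ± 97.2 against 442 ± 70.6, a difference of −1.81 ± 0.41 log2 (3.50-fold, adjusted p = 0.0399, limma), and the groups did not overlap. This call was lost on leaving out any 1 of the arrays 3447 SP 1 or 2, 4346 SP 1, 2 or 3, 3447 non-SP 1 or 3, or neurosphere non-SP 1, with adjusted p between 0.0119 and 0.167 over all single arrays left out. Cspg4 was at 1206 ± 253 against 2810 ± 1617, a difference of −1.08 ± 0.39 (adjusted p = 0.206, limma), and −0.64 without 4346 SP array 3 (adjusted p = 0.587). The second Cspg4 probe set overlapped between the lines, with a difference of −0.79 ± 0.33 (adjusted p = 0.268, limma). Lhfpl3, Olig1, Olig2 and Nkx2-2 overlapped between the lines, with differences of 0.54, −0.37, −0.17 and −0.45; the 95% intervals, from −0.53 to 1.61 for Lhfpl3 and from −0.83 to 0.50 for Olig2, leave room for differences either way.

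Sorted fractions of one origin were then compared, to ask whether dye-excluding cells differ in these markers. No member was called by limma in line 3447, where 0.00381% of probe sets were called, or in neurospheres, where 0.0114% were, 0.00762% higher and 0.00381% lower. At an unadjusted p under 0.05, 2 of the 6 genes passed in line 3447, Gpr17 and Olig1, against 6.92% of all probe sets. In neurospheres 2 passed, Lhfpl3 and Gpr17, against 4.32%. The share of all probe sets without overlap was not counted for SP against non-SP. A lack of overlap below is therefore description and no result about a member.

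Lhfpl3 averaged 358 ± 267 in neurosphere SP and 1364 ± 671 in neurosphere non-SP, and the groups overlapped. The labels state no pairing of SP and non-SP arrays, and pairs of equal replicate number were inferred from these same data. Within these pairs the SP array was lower, with differences of −2.09, −1.58 and −2.37 log2. Over the groups the difference was −2.01 ± 0.51 (4.03-fold, adjusted p = 0.759, limma). With the replicate number as a block there, the difference was −2.01 ± 0.29 with an adjusted p of 0.0227 (limma), and 11 of all probe sets were called. The dimmer Lhfpl3 probe set gave −1.88 ± 0.30 in the blocked fit (adjusted p = 0.0406, limma). With blocks in line 3447 as well, where numbers do not pair the arrays, neither was called (adjusted p = 0.0911 and 0.0970, limma). In line 3447, Lhfpl3 averaged 2296 ± 359 in SP and 3380 ± 388 in non-SP, without overlap, a difference of −0.56 ± 0.51 (adjusted p = 0.878, limma).

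Gpr17 was also lower in SP cells on average. The mean was 13.1 ± 13.2 in neurosphere SP and 63.2 ± 13.3 in neurosphere non-SP, without overlap, and the difference was −1.50 ± 0.41 (adjusted p = 0.828, limma; 0.374 with the block). By pairs of equal number it was −2.02, −0.63 and −1.84. In line 3447 the mean was 139 ± 97.2 in SP and 285 ± 87.9 in non-SP, where SP array 3 at 251 exceeded non-SP array 2 at 185, and the difference was −1.15 ± 0.41 (adjusted p = 0.628, limma).

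For the transcription factors, Olig1 averaged 1690 ± 668 in 3447 SP and 2879 ± 503 in 3447 non-SP, without overlap. The difference was −0.82 ± 0.32 (adjusted p = 0.661, limma), and −0.22 ± 0.32 in neurospheres. Olig2 differed by −0.55 ± 0.32 in line 3447 and −0.07 ± 0.32 in neurospheres. Nkx2-2 differed by 0.18 ± 0.59 and −0.20 ± 0.59. Cspg4 showed 1206 ± 253 in 3447 SP and 1182 ± 67.6 in 3447 non-SP, a difference of 0.01 ± 0.39 with a 95% interval from −0.82 to 0.84, and 123 ± 48.3 against 143 ± 50.2 in neurospheres, a difference of −0.12 ± 0.39. The second Cspg4 probe set gave −0.70 ± 0.33 in neurospheres, without overlap of the groups (unadjusted p = 0.0487, adjusted p = 0.9998, limma). By pairs of equal number it gave −0.30, −0.13 and −1.65. The signs of the Cspg4 and Nkx2-2 differences in line 3447 turned to −0.32 and −0.18 when arrays were centred on their medians.

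Whether the SP effect differed between line 3447 and neurospheres was tested directly. Without a block, none of the 6 genes was called by limma and none had an unadjusted p under 0.05, where 2.49% of all probe sets did. The widest gap was that of Lhfpl3, 1.45 ± 0.72 log2 (adjusted p = 1.00, limma). With the neurosphere block its unadjusted p was 0.00298, and 0.0255 for the second probe set, and with blocks in both origins 0.00637 and 0.0319; neither was called in these fits (adjusted p = 0.999, limma). Averaged over both origins, no member was called, against 0.0229% of all probe sets, and 3 genes had an unadjusted p under 0.05, against 9.15%: Gpr17 at −1.33 ± 0.29 (adjusted p = 0.142, limma), Lhfpl3 at −1.29 ± 0.36 (0.250) and Olig1 at −0.52 ± 0.22 (0.506). With the neurosphere block Lhfpl3 had an adjusted p of 0.0166 and Gpr17 of 0.0639 (limma), when 89 of all probe sets were called.

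**Figure D3:**
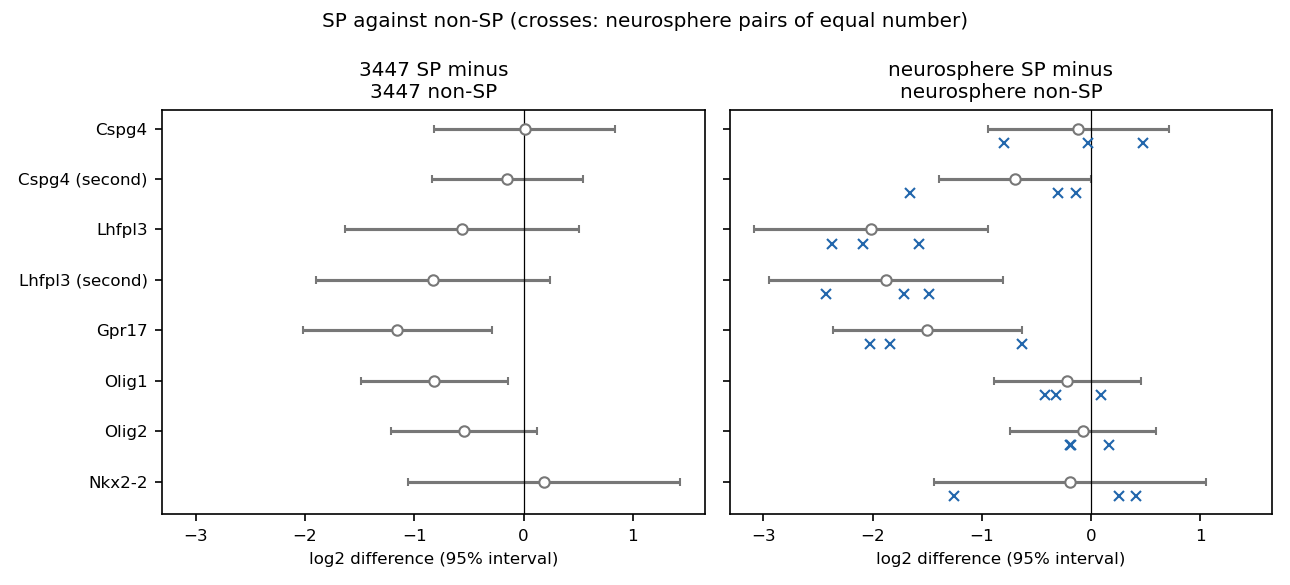
Difference in log2(signal + 16) between SP and non-SP cells with its 95% interval in line 3447 (left) and neurospheres (right), by member probe set. Blue crosses are neurosphere SP minus non-SP arrays of equal number, a pairing that the labels do not state. Open circles mark that no probe set had an adjusted p under 0.05, and the crosses of Lhfpl3 and Gpr17 all lie left of 0.

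Other genes of the lineage, from lists of textbook markers, were counted by their brightest probe set. The lists were chosen with earlier results of these data known. Of 23 tested further progenitor genes, 9 rose and 1 fell in 3447 SP against neurosphere SP, 9 rose and 1 fell in 4346 SP, and 10 rose and 1 fell in 3447 non-SP against neurosphere non-SP. Of all tested probe sets, 8.01% were called higher and 7.17% lower in 3447 SP, and 10.2% and 9.64% in 4346 SP. In the non-SP comparison these shares were 8.16% and 7.00%. They apply to every list below, and a count near them is no result about its list. Sox10, a factor that works with Olig2 through the whole lineage, rose from 1.29 ± 0.43 in neurosphere SP to 3123 ± 504 in 3447 SP and 5818 ± 2688 in 4346 SP (7.49 and 8.24 log2, adjusted p = 3.41e-10 and 8.81e-11, limma). Rlbp1, a retinoid-binding protein, rose by 4.31 in 3447 SP and 4.42 in 4346 SP, Sox6, which keeps progenitors immature, rose by 1.71 in 3447 SP, and C1ql1 rose by 4.39 in 4346 SP. Pdgfra, the growth factor receptor of dividing progenitors, falls outside the naming rule and was chosen after its values were seen; it rose by 3.21 in 3447 SP (adjusted p = 0.000348) and 3.72 in 4346 SP (adjusted p = 7.93e-05, limma).

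Among 14 genes of committed precursors, 3 rose and 0 fell in 3447 SP, 7 rose and 1 fell in 4346 SP, and 4 rose and 0 fell in the non-SP comparison. Bcas1, which marks early myelinating cells, rose by 4.43 and 4.49 log2 in 3447 SP and 4346 SP, and Enpp6, an enzyme of newly forming oligodendrocytes, by 4.34 and 4.58. Of 8 tested genes of mature myelin, 4 rose and 1 fell in 3447 SP, and 6 rose and 1 fell in both other comparisons. Mbp, a major myelin protein, rose by 8.22 log2 in 3447 SP and 8.20 in 4346 SP, while Car2, a carbonic anhydrase, fell, with differences of −6.12 and −4.71. Of the 15 myelin genes on the array, 7 did not pass the filter, among them Mog and Mag, late myelin proteins, whose group means lay between 1.07 and 12.9.

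Of 26 tested partners and antagonists of the Olig and Nkx factors, 3 rose and 7 fell in 3447 SP, 1 rose and 7 fell in 4346 SP, and 1 rose and 5 fell in the non-SP comparison, and the other 16, 18 and 20 were not called. Their median differences were −0.32, −0.38 and −0.21 log2. Tcf4, an E protein that pairs with basic helix-loop-helix factors, fell, with differences of −0.42 log2 in 3447 SP and −0.45 in 4346 SP. Sox9, a glial factor of neural stem cells and astrocytes, fell as well (−1.24 and −1.74), and so did Hes1, a Notch target, in 3447 SP (−1.33). Of 8 tested relatives of the members, 1 fell in each comparison: Lhfp, of the family of Lhfpl3, with −3.91 in 3447 SP and −5.18 in the non-SP comparison, and Lhfpl4 with −1.53 in 4346 SP. Of 15 genes for ligands and partners of Cspg4, 5 rose and 1 fell in 3447 SP and 6 rose and 1 fell in 4346 SP; Col6a1, a subunit of the collagen that NG2 binds, rose by 3.30 and 3.93, and the protease gene Adam10, whose product sheds NG2, fell (−0.70 and −0.76). In the non-SP comparison 2 rose and 1 fell.

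Between SP and non-SP cells 0 genes of these lists were called by limma in either origin. Of the 23 further progenitor genes, 21 lay below 0 in line 3447 (median −0.45 log2) and 20 in neurospheres (median −0.31), where 53.9% and 49.6% of all tested probe sets lay below 0 (medians −0.03 and 0.00). The smallest p among them belonged to Ptprz1 in line 3447 (−0.40, adjusted p = 0.704) and to Tnr in neurospheres (−1.28, adjusted p = 0.828, limma). Of the members, 4 of 6 lay below 0 in line 3447 and 6 of 6 in neurospheres. Of 13 astrocyte markers, 9 lay above 0 in line 3447 (median 0.53) and 11 in neurospheres (median 0.43). All 5 tested pericyte markers lay above 0 in both (medians 0.29 and 0.31). Of 10 neuron markers, 5 lay above 0 in line 3447 (median 0.04) and 2 in neurospheres (median −0.62), and of 11 neural stem markers 4 and 6. Of 26 partners and antagonists 18 and 20 lay above 0, and of 15 ligands and partners of Cspg4 11 and 9. None of these genes was called by limma. Their part in the differences of the progenitor genes was not tested.

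**Figure D4:**
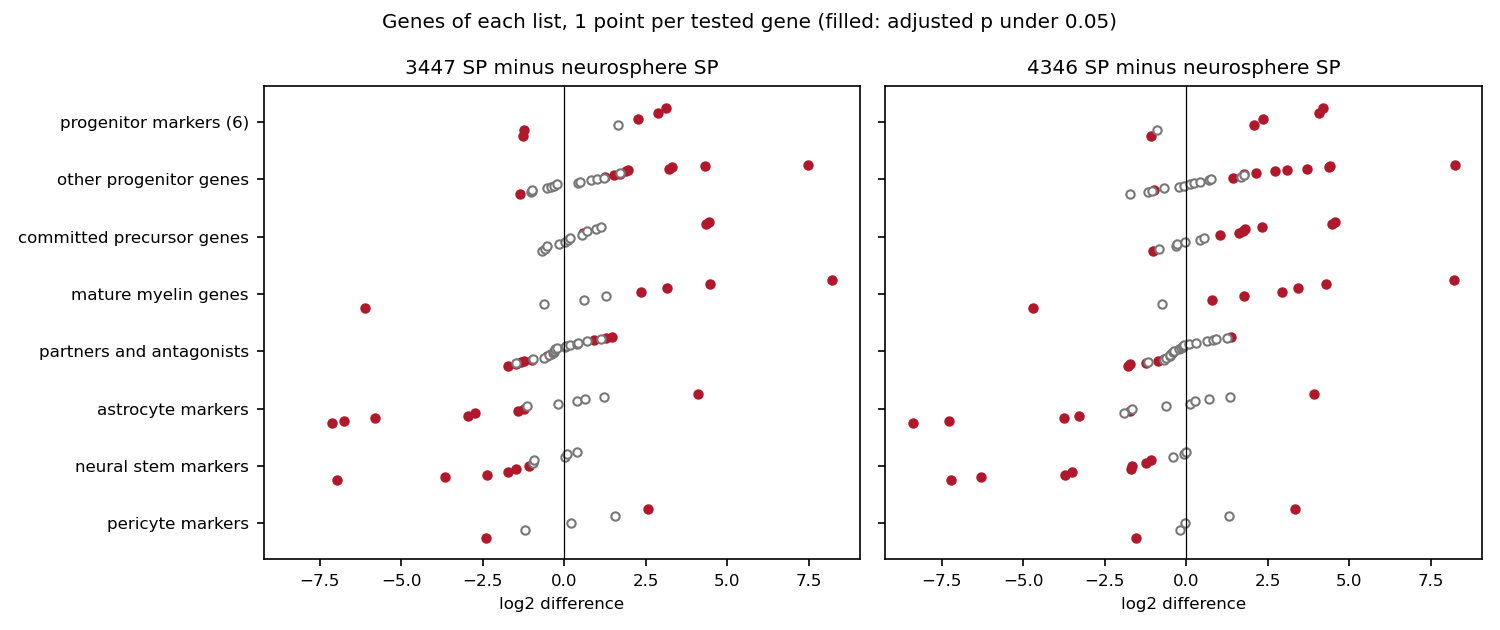
Difference in log2(signal + 16) from neurosphere SP of each tested gene (1 point, its brightest probe set) in 8 lists, for 3447 SP (left) and 4346 SP (right); filled points have an adjusted p under 0.05. In both panels Sox10 (progenitor) and Mbp (myelin) lie far on the positive side. Mlc1 (astrocyte), Egfr (neural stem) and Car2 (myelin) lie far on the negative side.

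Markers of other cell types that could share these genes moved in the same comparisons, and their part in the results was not tested. Pericytes also carry Cspg4: of 12 pericyte markers on the array 5 passed the filter, 1 rose (Mcam, by 2.58 log2 in 3447 SP and 3.34 in 4346 SP) and 1 fell (Notch3, with −2.40 and −1.54). The summed signal of the 12 ran from 923 to 1594 in 3447 SP, from 854 to 944 in 3447 non-SP and from 1482 to 2190 in 4346 SP. In neurosphere SP it ran from 1067 to 2540, and in neurosphere non-SP from 671 to 1811. Markers of microglia summed to between 98.8 and 617 over 10 genes, and 1 of them, Cd68, passed the filter without being called. Endothelial markers summed to between 141 and 2130 over 10 genes, and Flt1 fell in the tumour SP groups, with differences of −3.63 and −4.82 log2.

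Neural stem markers, of which 11 were tested, showed 0 higher and 6 lower in 3447 SP, and 0 higher and 8 lower in 4346 SP; Egfr, the receptor related to the transgene, differed by −6.97 and −7.20 log2, and Nes, an intermediate filament of stem cells, by −1.73 and −1.67. Of 13 astrocyte markers, 1 rose and 7 fell in 3447 SP and 1 rose and 5 fell in 4346 SP, and Mlc1, a membrane protein of astrocyte end feet, differed by −7.12 and −8.39. Of 10 neuronal markers 1 rose and 4 fell in each line's SP. Genes of 2 further lists, which overlap with the lineage lists (Sox6 is in the cartilage list), rose as well: 5 of 8 neural crest, Schwann and melanocyte markers in 3447 SP and 6 of 8 in 4346 SP, with none lower (Erbb3, a neuregulin receptor, by 6.77 and 6.63), and 7 of 11 cartilage markers in both lines with 1 lower (Col2a1 by 8.10 and 8.29). Ependymal markers gave 1 and 3 higher of 7 in the same order, with none lower.

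Genes whose profile over the 15 arrays was most like that of a member were ranked by the root mean square difference of centred log2 values among 11355 genes, for the 4 members whose group means spanned over 2 log2. For Cspg4, with a span of 4.21, they were Ggct (0.44 log2), Scrg1 (0.45) and Fa2h (0.49). For Gpr17, with a span of 4.07, they were Sdr42e1 and Dscaml1 (both 0.64) and Fbln5 (0.66), For Lhfpl3, with a span of 3.45, they were Ankrd44 (0.45), Atcay (0.53) and Mapt (0.55). For Nkx2-2, with a span of 2.09, they were Cpq (0.49), Kcnk1 (0.51) and Tgfb3 (0.52). The likeness is one of pattern and not of level. Mean signals of Ankrd44 were 112 in neurosphere SP, 249 in neurosphere non-SP and 598 in 3447 SP, and those of Scrg1 were 650 in neurosphere SP, 5313 in 3447 SP and 7987 in 4346 SP.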

How the data were processed

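RNA of sorted cells was isolated with a micro-scale column kit and amplified with a NuGEN Ovation Pico kit, per the labels. The deposited intensities are linear MAS5 signals from Expression Console, run by the authors, per the submitters' processing notes, which name no version. The trimmed mean was 500 on every array. Gene symbols came from the platform annotation: 34945 probe sets had 1 symbol, 932 several and 9160 none; 64 controls were left out. No detection calls were used, and the number of arrays (3 per group) limits the precision.

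Signals were quantile-normalized and transformed to log2(signal + 16). Probe sets above the median of their own array on at least 3 arrays (26256) were fitted with limma 3.58.1 in R 4.3.3 as 5 groups with 10 residual degrees of freedom. The spread was moderated along the signal level, and 8 comparisons were tested two-sided with Benjamini-Hochberg adjustment at 0.05. The script was tested on simulated data. A gene of a list stands for its brightest probe set on average; per list, up to 3 genes with the smallest p were named. RefSeq (GRCm38.p6) gave gene order and promoters. The members, lists and comparisons were chosen with earlier results of these data known. The labels call the samples biological replicates, and p-values measure the spread between them, pooled over the 5 groups. Within a tumour line that is the spread between hosts of a shared starting culture. It is not a spread between tumours.

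The labels state no pairing of SP and non-SP arrays. A pairing by equal replicate number was inferred for neurospheres, where deviations of equally numbered arrays correlated at 0.48, 0.45 and 0.50. It was not inferred for line 3447 (−0.26, −0.26 and −0.16). The neurosphere block rests on this inference from the same data. Alternatives were the scaling, pseudocount, filter, unit of test, spread model, array weights, groups in the fit, replicate block and each array left out.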

Additional observations from a re-analysis of the deposited data

Results flagged for a closer look

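Gpr17 differed between the tumour lines: its signal was 139 ± 97.2 in 3447 SP and 442 ± 70.6 in 4346 SP (n = 3 arrays each), a difference of −1.81 log2 that passed the test of the difference between the lines (adjusted p = 0.0399, limma), with every 3447 SP array below every 4346 SP array. The call was lost in 14 of 28 alternatives, including 8 of 15 that left out a single array, no filter, no trend, a pseudocount of 1 and the compared groups alone; the difference ran from −2.31 to −1.46 and the adjusted p from 0.00381 to 0.167. No group had enough arrays for a check of single outlying arrays.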

How the results depend on the processing

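All Cspg4, Lhfpl3 and Gpr17 calls of both tumour SP groups against neurosphere SP held in every alternative run, and no member changed direction in a tumour against neurosphere comparison. Over 1800 results of single probe sets under alternatives, 1756 kept their direction and 1690 also their side of the threshold. The 5 calls in 3447 SP became 6 with array weights (Nkx2-2 added), 3 to 6 on leaving out single arrays and 4 without both arrays of neurosphere number 1. The 5 in 4346 SP became 4 with median centring, no trend, array weights or without both arrays of neurosphere number 1, Olig2 being lost in each (adjusted p = 0.116, 0.0532, 0.0717 and 0.0814, limma), 3 with the compared groups alone, 3 to 6 without single arrays, and 3 without 3447 SP array 3 and 4346 SP array 3 together, an alternative chosen after seeing the data. The 2 in non-SP cells became 3 with median centring or a pseudocount of 64 (Lhfpl3 added), 4 with array weights, 5 with the compared groups alone, 2 to 4 without single arrays and 3 without both arrays 3. The 1 call between lines (Gpr17) became 0 with a pseudocount of 1, no filter, no trend or the compared groups alone, 0 to 1 without single arrays, and 0 on leaving out either pair of arrays together (both chosen after seeing the data). The 0 calls of SP against non-SP in neurospheres became 1 with the neurosphere replicate block (Lhfpl3), and the 0 of the averaged effect became 1 with that block (Lhfpl3) and 1 with array weights (Gpr17, −1.50, adjusted p = 0.0399, limma). The replicate block changed no other call of a leading probe set. In line 3447, where numbers do not pair the arrays, a block called 4 of all probe sets instead of 1. Signs turned only for differences that were not called. Between lines, the second Lhfpl3 probe set went to −0.079 with median centring, and without both arrays 3 it and Lhfpl3 went to −0.20 and −0.0054; Olig2 ran from −0.65 to 0.19 without single arrays. For SP against non-SP in line 3447, Cspg4 went to −0.32 with median centring, −0.032 with array weights and −0.13 without both arrays 3 (−0.13 to 0.21 without single arrays; second probe set −0.39 to 0.051), and Nkx2-2 to −0.18 with median centring (−0.092 to 0.44). In neurospheres Nkx2-2 went to 0.33 without both arrays of number 1 (−0.70 to 0.80 without single arrays), Cspg4 ran from −0.50 to 0.13 and Olig2 from −0.19 to 0.073. For the difference of SP effects, Cspg4 went to −0.16 with median centring and −0.013 without both arrays 3 (−0.12 to 0.51), Gpr17 to −0.19 with a pseudocount of 64 and −0.14 without both arrays 3 (−0.15 to 0.71), and Nkx2-2 to −0.15 without both arrays of number 1 (−0.61 to 0.89). For the averaged effect Nkx2-2 went to 0.0089 with a pseudocount of 64, 0.061 without both arrays 3 and 0.26 without both arrays of number 1 (−0.26 to 0.49), and Cspg4 ran from −0.24 to 0.073. Over all probe sets, the 5210 calls in 4346 SP became 3282 with the compared groups alone, and with 1 probe set per gene, which tests fewer, the tumour comparisons gave 2335, 2888 and 2306 calls. Other causes of these changes were not tested. Probe sets near the added 16 have compressed differences.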
